A study of Sus scrofa with 10 samples.

Results

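Control morulae of the pig were sequenced after injection of a non-specific small interfering RNA (siRNA), and the RNA of these embryos is described here. They are the NC group, the 5 of 10 samples in the series whose titles carry NC siRNA, and the other 5 samples, from embryos given an siRNA against DDB1, are not compared with them. In the NC group matured oocytes received the control siRNA, were activated without sperm (parthenogenetic activation) and were cultured to the morula stage. The labels' protocols say that total RNA was purified with an RNeasy Mini Kit, cDNA was cut with dsDNA Fragmentase, and libraries were made with a TruSeq Nano DNA LT kit for paired-end Illumina sequencing. The labels do not say whether the 5 libraries come from separate cultures or pools of embryos, nor how many embryos each holds, so the spread between them may be partly technical.

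A morula is the ball of blastomeres that compacts before the blastocyst forms. In mammals the oocyte stores RNA that is cleared while the embryonic genome is switched on, and by the morula the outer cells polarise towards trophectoderm and the inner cells towards epiblast and primitive endoderm. A parthenogenetic embryo has only maternal chromosomes, so genes that are read from the paternal copy alone lack that copy. Levels are given as FPKM, fragments per kilobase of transcript scaled to the mapped total of the library. They are set per length, but comparisons between genes are rough, since a gene's FPKM can lie far below that of its main isoform. CKS1B, for example, had a gene mean of 88.0 FPKM, while its leading isoform was at 421 to 1033 FPKM in the 5 libraries. The rank order and each call of a gene as under a threshold carry this limit too. Values of the libraries NC 1 to NC 5 are listed in that order, and means are given ± the SD over the libraries (n = 5).

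The libraries held 33737657 (NC 3) to 50911295 (NC 4) estimated counts, and 14148 to 14755 of the 24358 genes listed had a count. Mitochondrially encoded genes took 8.58% of the counts in NC 1, 13.1% in NC 2, 11.7% in NC 3, 18.4% in NC 4 and 14.1% in NC 5. Across the detected genes, which are not independent of each other, Pearson's r of log2 FPKM between pairs of libraries ran from 0.936 (NC 2 with NC 5) to 0.965 (NC 2 with NC 4). NC 5 was the library farthest from the gene's median for 30.3% of detected genes, and NC 1 to NC 4 were for 15.9% to 18.7% each. DDB1, the adaptor of CUL4 ubiquitin ligases and the target in the other group, was at 3.59, 3.12, 2.53, 3.15 and 4.44 FPKM in these controls, so it was above 1 FPKM in every NC library.

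A gene was called detected when its FPKM was at least 1 in all 5 libraries. This held for 6824 genes, 28.0% of those listed, and they carried 97.9% of all counts. That 28.0% is the share to set beside the number detected in each list below. Another 3151 genes reached 1 FPKM in some libraries only, 14383 in none, and 6876 had no count in any library. The threshold falls in a dense range: 197 genes had their lowest library at 1 to 1.1 FPKM and 209 at 0.9 to 1 FPKM. The detected genes had a median level of 8.23 FPKM, 3041 of them reached a mean of 10 FPKM, 646 reached 100 and 96 reached 1000. In bulk RNA, fewer cells of a type and less RNA per cell cannot be told apart, and this holds for every level below.

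The highest levels belonged to genes for mitochondrial energy supply, iron storage, actin binding, ubiquitin and ribosomes. Of the 100 genes of highest mean FPKM, 13 were mitochondrially encoded protein genes, 32 encoded cytosolic ribosomal proteins and 14 were nuclear subunits of oxidative phosphorylation. The order was shared between libraries: 82 genes stood in the top 100 of all 5 libraries, and 123 in the top 100 of at least 1. The top rank was ATP6, a subunit of ATP synthase read from mitochondrial DNA, at 29435 ± 6971 FPKM. The highest nuclear gene was an unnamed 2-exon model of 225 bases, ENSSSCG00000035520, at chromosome X (coordinates here are on build susScr11) 22068922 to 22069186, at 18086 ± 5112 FPKM. No symbol or description was found for it.

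**Figure D1:**
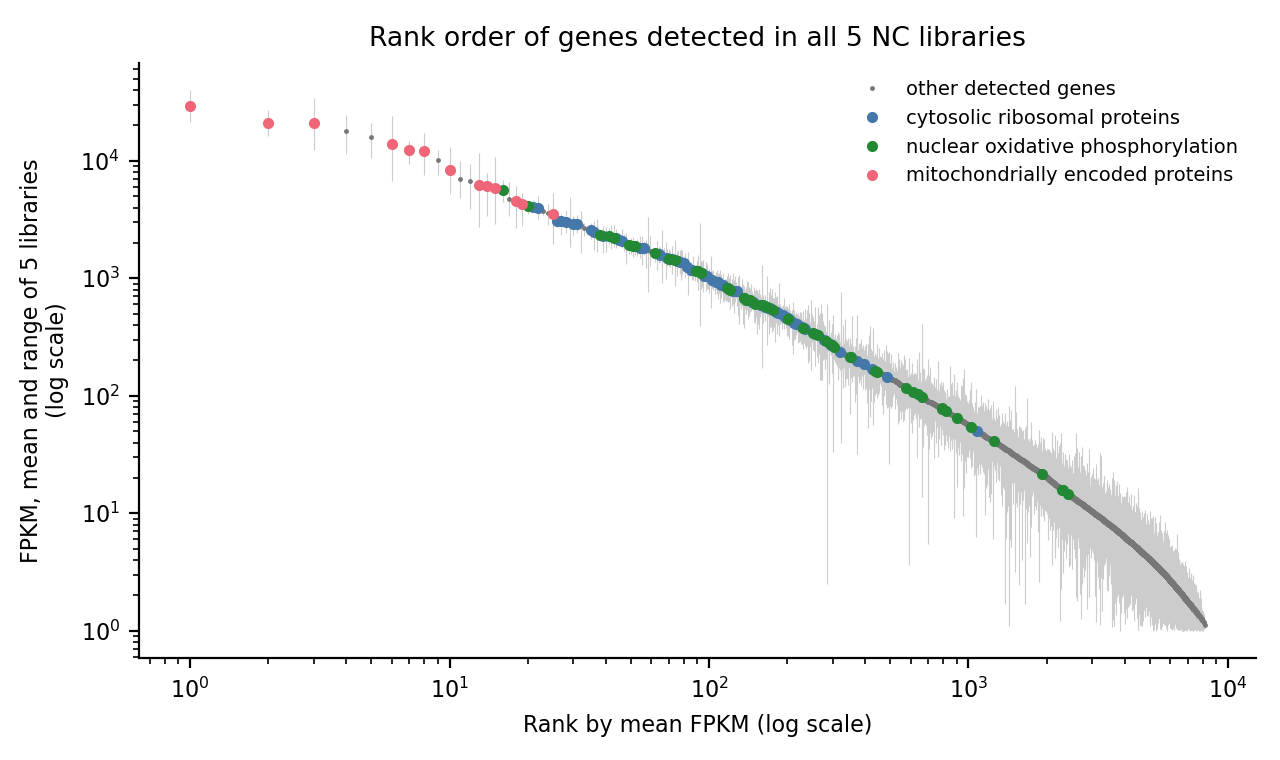
Each point is a gene detected in all 5 NC libraries, placed by its rank (x axis, log scale) and its mean FPKM (y axis, log scale), with a grey line from its lowest to its highest library. Mitochondrially encoded protein genes lie towards the left end, with nuclear genes such as FTH1 and TMSB10 among them. Cytosolic ribosomal protein and nuclear oxidative phosphorylation genes lie mostly above 100 FPKM.

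FTH1, the heavy chain of the iron store ferritin, followed at 15404, 21003, 17135, 10529 and 14910.4 FPKM, and its light chain FTL stood at 2830.3 ± 786 FPKM. TMSB10, a small protein that binds actin monomers, was at 12376, 9613, 7559, 11800.0 and 9314 FPKM. In each library FTH1 and TMSB10 exceeded the highest value of FTL. UBB, which encodes a chain of ubiquitin units, was at 7930.4, 4838, 10038, 6264 and 5967 FPKM, and HSPE1, the co-chaperone of the mitochondrial chaperonin, at 8384, 9324, 6636, 5209 and 3847 FPKM. UBB was highest in NC 3 and lowest in NC 2, and HSPE1 was highest in NC 2 and lowest in NC 5. The respiratory chain subunits COX4I1, COX7A2 and UQCR10 were at 5647 ± 845 FPKM, 4101 ± 316 FPKM and 2697 ± 269 FPKM. SERF2 had 3627 ± 685 FPKM, and ENSSSCG00000003903, described in the table as subunit 6 of the cytochrome b-c1 complex, had 3722 ± 287 FPKM. RPS21, RPL39, RPS23, RPS28, RPS15, RPS16 and RPL11, proteins of the ribosome's small and large subunits, filled 7 of the 20 highest nuclear places, from 2909 ± 449.9 FPKM for RPL11 to 4056 ± 398 FPKM for RPS21. COX4I1, RPS21 and FTL lie over a gene on the other strand (EMC8, CABLES2 and GYS1), and the sources used here do not say whether counting used the strand, without which reads of 2 such genes are pooled. Of the 358 genes examined by name, 91 share bases with an opposite-strand gene and 53 with one on their own strand. Ferritin, ubiquitin, histone and ribosomal protein genes also have near-identical copies in mammalian genomes, and no source used here says how the counting divided reads between copies, so their levels are uncertain to that extent.

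Among the 13 mitochondrially encoded proteins, COX3 (21006 ± 4247 FPKM), ND4L (20882 ± 8229.5 FPKM), COX2 (13951 ± 6760.5 FPKM), COX1 (12453 ± 2179.9 FPKM) and ND4 (12051 ± 3399.7 FPKM) followed ATP6. ND5, at 3542 ± 1318 FPKM, was the lowest of the set. All 13 were lowest in NC 1, while ND2, the most uneven of these apart from ATP8, ran through 2715, 6004, 4698, 11686 and 6159 FPKM. ATP8, which overlaps ATP6 on the same strand, was at 2924, 7855, 3992, 10843 and 3965 FPKM. Summed over the 13 genes the level was 95183, 150535, 130731, 216456 and 150749 FPKM, so NC 4 held 2.27-fold the level of NC 1. Because FPKM is relative to the whole library, a larger mitochondrial share goes with lower values of the other genes of that library. Scaling the libraries without mitochondrial genes multiplied the levels by 0.927 in NC 1, 1.03 in NC 2, 0.950 in NC 3, 1.08 in NC 4 and 1.02 in NC 5.

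A family of small models on chromosome 1 matched signal recognition particle RNA, the RNA of the particle that guides secreted proteins to the endoplasmic reticulum (Rfam model RF00017). The copy at 179686395 to 179686694 was at 3737, 3418, 4414, 6574 and 5345 FPKM, among the 20 highest nuclear genes. The copy at 179456985 to 179457284 was listed at 6648, 0, 0, 0 and 6212 FPKM, high in NC 1 and NC 5 and without a count in the other libraries. The microRNA model ssc-mir-1285, 80 bases at 179457208 to 179457287 on the same strand, had 0.0182, 2214, 2602, 3490.2 and 0.00808 FPKM, high exactly where that copy had no count. The pair overlaps on 1 strand, and how the counting divided the reads of this spot between both models was not tested, so neither value is read as a level of its own gene. A further copy at 218682874 to 218683164 was at 17.4, 13.7, 407, 33.1 and 15.3 FPKM, high in NC 3 alone.

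Ribosomal protein genes were abundant and even. Of 78 cytosolic ribosomal protein genes 76 were detected, with a median of 802 FPKM and a median SD of log2 FPKM of 0.23, against 8.23 FPKM and 0.37 over all detected genes. The spread falls with level, however: the median SD was 0.29 for all genes with means of 100 to 1000 FPKM and 0.27 for those higher. NC 4 was the lowest library for 46 of the 76, and for 28 after scaling without mitochondrial genes. All 73 mitochondrial ribosomal protein genes were detected, led by MRPL22 (447 ± 70.4 FPKM) and MRPL51 (436 ± 105.9 FPKM), with a median of 71.6 FPKM. Of 39 translation factor genes 38 were detected: EIF1, which helps select the start codon, was at 1328, 972, 1360.3, 1335 and 1742 FPKM, and EEF1A1, which brings transfer RNA to the ribosome, at 1239, 1176, 959, 957 and 1549 FPKM. EIF1 and EEF1A1 were highest in NC 5. EIF4A1, the helicase of cap-dependent initiation, followed at 412 ± 36 FPKM. All 34 ribosome biogenesis genes were detected, among them NPM1 (416 ± 84.9 FPKM), a nucleolar chaperone, and NOP10 (333 ± 20.5 FPKM), a part of the particle that modifies ribosomal RNA.

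All 49 nuclear oxidative phosphorylation genes matched were detected, at a median of 453 FPKM. ATP5PO, in the stalk of ATP synthase, was at 2311, 2382, 2482, 2238 and 2289.8 FPKM, with a fold of 1.11 between the lowest and highest library. CYCS, cytochrome c, which carries electrons and also triggers the apoptosome, was at 2402, 2347, 2676, 1973 and 2033 FPKM. The splicing list was complete too, 37 of 37, and its highest members were the small nuclear ribonucleoprotein genes SNRPE (2474 ± 634 FPKM), SNRPD2 (1053 ± 224 FPKM), SNRPD3 (821 ± 129 FPKM) and SNRPG (751 ± 186 FPKM). SNRPE ran through 3173, 3007, 2488, 2021 and 1681 FPKM, highest in NC 1 and lowest in NC 5. In the proteasome list 35 of 36 genes were detected. POMP, which assists its assembly, was at 669, 672, 818, 479 and 370.0 FPKM and PSMB7, a catalytic subunit, at 655, 538, 560.1, 641 and 513 FPKM. Both were lowest in NC 5, and PSMB7 varied less than POMP, with SDs of log2 FPKM of 0.16 and 0.46. Of 28 chaperone genes 26 were detected, with HSPA8 at 457 ± 95.7 FPKM, PFDN2 at 237 ± 48.7 FPKM, HSP90AB1 at 202 ± 49.8 FPKM and CCT8 at 199 ± 27.9 FPKM.

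Epiblast markers were present in part. Of 25 genes of the pluripotency and epiblast list 12 were detected, 48.0% against 28.0% of all genes. DPPA2, a regulator of early embryonic genes, was at 84.8, 101, 104, 136 and 89.5 FPKM, and POU5F1, the core pluripotency factor OCT4, at 123, 52.3, 62.1, 68.6 and 98.7 FPKM. POU5F1 was highest in NC 1 and NC 5 and lowest in NC 2, with a fold of 2.35 between them. DPPA5 was at 76.4, 50.1, 198, 50.4 and 30.1 FPKM and was high in NC 3. The Krüppel-like factors KLF5 and KLF4 stood at 38.6 ± 10.2 FPKM and 36.4 ± 8.9 FPKM.

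NANOG, which keeps the epiblast apart from primitive endoderm, was uneven at 1.75, 0.354, 3.0, 6.62 and 1.39 FPKM, under 1 in NC 2 and highest in NC 4. SOX2, the partner of OCT4, was at 0.491, 0.346, 0.743, 1.17 and 1.6 FPKM, above 1 in NC 4 and NC 5 only. At the low end LEFTY2 had no count in any library, and NODAL, FGF4, KLF2 and ETV4 had means of 0.0101, 0.064, 0.135 and 0.167 FPKM. NODAL and LEFTY2 are a signal of the epiblast and its antagonist, and FGF4 is the growth factor by which the mouse epiblast drives primitive endoderm.

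**Figure D2:**
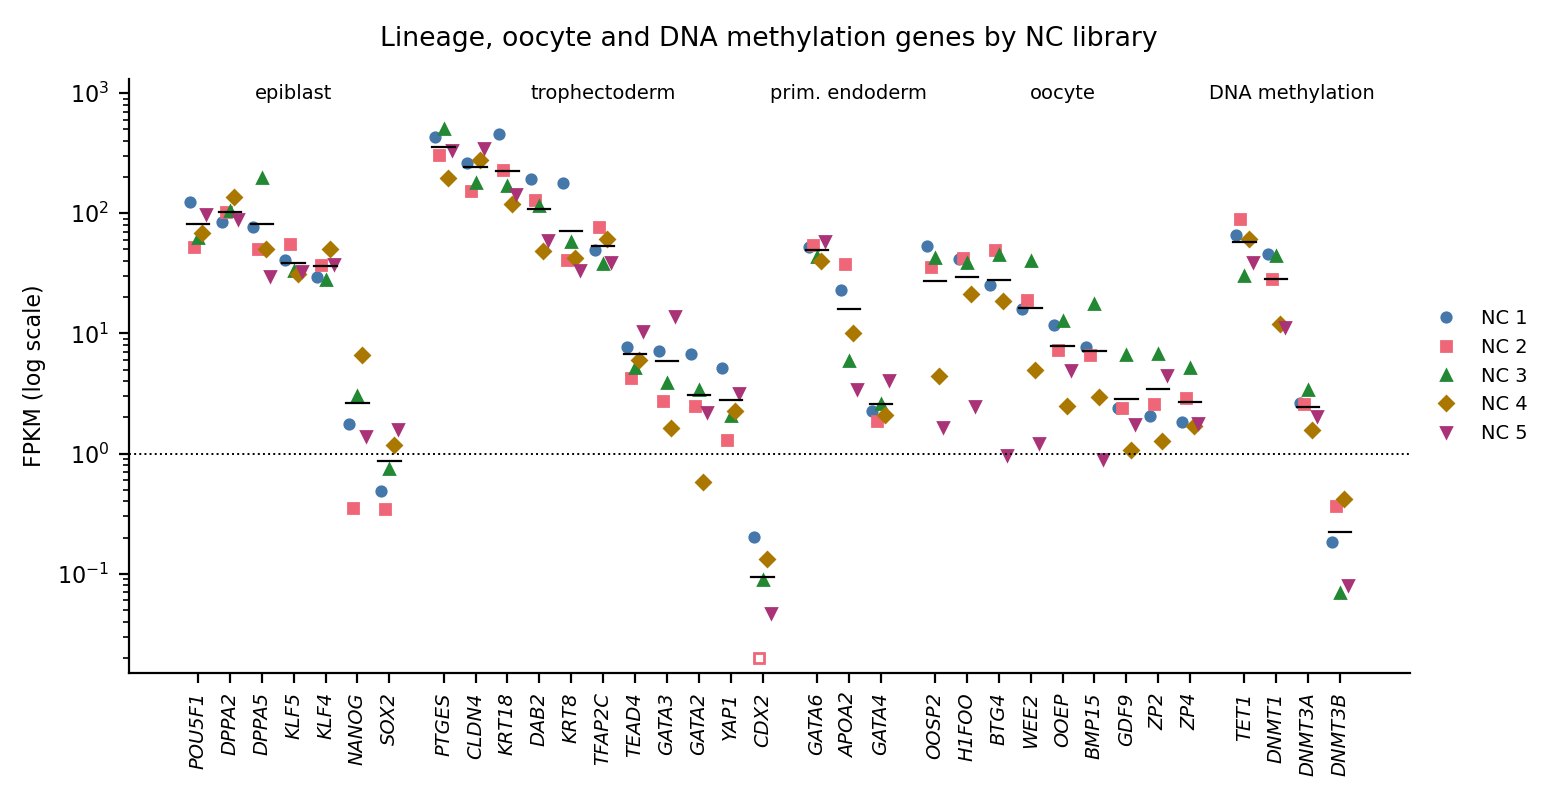
Points give the FPKM of each NC library (log scale, marker and colour by library), horizontal bars the mean of the 5, and the dotted line 1 FPKM. The open marker at the bottom is CDX2 in NC 2, which had no count. The oocyte genes OOSP2, BTG4 and WEE2 were lowest in NC 5, while OOEP, GDF9, ZP2 and ZP4 were lowest in NC 4. CDX2 stayed under 1 FPKM in all 5 libraries.

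Of 25 trophectoderm genes 13 were detected, 52.0% against 28.0% of all genes. PTGES, a prostaglandin E synthase, was at 428, 303, 503, 197 and 333 FPKM. CLDN4, a tight junction claudin, was at 259, 154, 178, 279 and 347 FPKM and highest in NC 5. KRT18, a keratin of simple epithelia, was at 453, 231, 169.7, 119 and 143 FPKM. It was highest in NC 1 and lowest in NC 4. Its partner KRT8 showed the same high library, at 179, 40.8, 58, 42.2 and 33.9 FPKM, and the endocytic adaptor DAB2 was at 192, 129, 115, 48.2 and 59.4 FPKM. TFAP2C, a transcription factor of the lineage, was at 49.1, 77, 37.9, 61.6 and 39 FPKM, while TEAD4, which switches on the trophectoderm programme in outer cells, was at 7.67, 4.28, 5.14, 5.97 and 10.5 FPKM and its co-activator YAP1 at 5.18, 1.29, 2.04, 2.24 and 3.18 FPKM.

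GATA3 was at 7.12, 2.74, 3.83, 1.62 and 14 FPKM, with a fold of 8.6 between NC 4 and NC 5, and GATA2 at 6.8, 2.5, 3.41, 0.583 and 2.2 FPKM, under 1 in NC 4. GATA2 overlaps EEFSEC on the other strand. CDX2, the trophectoderm factor that represses POU5F1 in the mouse, was at 0.201, 0, 0.0881, 0.132 and 0.0475 FPKM and so under the threshold in every library. EOMES, ELF5, HAND1 and AQP8 had means of 0.159, 0.13, 0.129 and 0.0384 FPKM.

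Of 21 primitive endoderm genes 3 were detected, 14.3% against 28.0% of all genes. GATA6, an early factor of that lineage, was at 52, 54.9, 43.3, 39.9 and 58.3 FPKM, with an SD of log2 FPKM of 0.23. APOA2, an apolipoprotein gene, was at 22.9, 37.9, 5.89, 10.1 and 3.47 FPKM, with an SD of 1.41 and its highest values in NC 1 and NC 2. GATA4, the partner of GATA6, was at 2.28, 1.86, 2.6, 2.11 and 4.12 FPKM and highest in NC 5. SOX17 and AFP had no count in any library, and 3 counts in the library of lowest depth would have given SOX17 a level of 0.0585 FPKM. FOXA2, HNF4A and CUBN had means of 0.0174, 0.0288 and 0.0392 FPKM.

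Genes for adhesion and polarity, the machinery of compaction, were mostly present, 28 of 35 (80%), against 28.0% of all genes. EZR, which ties the apical membrane to actin, was at 138, 125, 87.6, 83.8 and 122 FPKM. PARD6B, a member of the apical polarity complex, was at 33.9, 43.3, 51.6, 44.2 and 65.8 FPKM, and CDH1, the E-cadherin of compaction, at 27.5, 28.3, 33.7, 17.4 and 16 FPKM. CDH1 was lower in NC 4 and NC 5 than in the other libraries, and it overlaps TANGO6 on the same strand. Its cytoplasmic partner CTNNA1 was nearly constant at 20.7, 21.6, 21.7, 20.9 and 22 FPKM, as was the tight junction protein OCLN at 17.3, 18.5, 18.2, 17 and 18.5 FPKM. EPCAM, an epithelial adhesion molecule, was at 28.6, 29.4, 8.95, 22.3 and 16.1 FPKM and low in NC 3.

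Several genes known from the oocyte were uneven between libraries. Of the subcortical maternal complex and oocyte effector list 6 of 17 were detected (35.3%), near the 28.0% of all genes, and of the oocyte-secreted and zona pellucida list 4 of 7 (57.1%). OOSP2, an oocyte-secreted protein, was at 52.9, 35.9, 42.3, 4.43 and 1.67 FPKM. H1FOO, the linker histone of the oocyte, was at 41.6, 42.4, 38.6, 21.4 and 2.47 FPKM. BTG4, an adaptor that recruits the deadenylase which removes maternal RNA, was at 25.5, 49.2, 44.9, 18.6 and 0.973 FPKM. All 3 were lowest in NC 5, and BTG4 was under 1 FPKM there. WEE2, the oocyte kinase that holds meiosis, was at 16.1, 18.9, 39.7, 4.95 and 1.21 FPKM. OOEP, of the subcortical complex, was at 11.8, 7.21, 12.6, 2.51 and 4.94 FPKM. KPNA7, an importin of oocytes, was at 10.3, 5.73, 15.6, 3.2 and 3.62 FPKM. NC 3 was highest for WEE2, OOEP and KPNA7, NC 5 lowest for WEE2, and NC 4 lowest for OOEP and KPNA7.

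The secreted growth factors BMP15 and GDF9 were likewise highest in NC 3. BMP15, on the X chromosome, was at 7.69, 6.66, 17.5, 2.98 and 0.91 FPKM. GDF9, its partner, was at 2.41, 2.4, 6.6, 1.08 and 1.78 FPKM. Of the coat proteins of the zona pellucida, ZP2 was at 2.05, 2.56, 6.74, 1.27 and 4.52 FPKM and ZP4 at 1.82, 2.89, 5.14, 1.69 and 1.79 FPKM, both highest in NC 3. ZP3 was at 1.28, 1.65, 1.96, 0.722 and 3.36 FPKM, highest in NC 5 and under 1 in NC 4. GDF9 lies opposite UQCRQ and ZP2 opposite TMEM159. Summed over the 17 matched genes, the maternal complex and effector list had 114, 138, 190.3, 60.4 and 21.3 FPKM, a fold of 8.94 between NC 3 and NC 5. The 2 oocyte lists held 5 genes with an SD of log2 FPKM over 1 among their 10 detected, against 2.61% of all detected genes. TLE6 and ZBED3 had no count, and ZAR1, PABPC1L and NLRP7 had means of 0.167, 0.161 and 0.129 FPKM. DPPA3 was not analysed here.

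Y-linked and imprinted genes bear on a genome without a paternal set. SRY, EIF1AY, KDM5D and ZFY, read from the Y chromosome, had no count in any library. On the Y chromosome 3 of 79 listed genes were detected. Among them was CD99, a gene of the pseudoautosomal region that the X chromosome shares in mammals, at 28.9, 14.6, 11.8, 10.2 and 21.1 FPKM. The others are not named here, and whether they lie in that region was not examined. Of 17 genes listed here as read from the paternal allele in some mammals or tissues 3 were detected, 17.6% against 28.0% of all genes. NDN was at 7.86, 3.94, 3.73, 3.45 and 4.65 FPKM, highest in NC 1. IMPACT was at 4.42, 3.25, 1.36, 4.07 and 3.64 FPKM and lowest in NC 3, and USP29 at 1.32, 2.66, 2.37, 2.31 and 2.61 FPKM and lowest in NC 1. PEG10, MEST, PEG3 and IGF2, paternal-allele genes of the placenta and of growth, had means of 0.729, 0.58, 0.352 and 0.0692 FPKM, and PEG10 exceeded 1 only in NC 3. RTL1, DLK1, MKRN3 and MAGEL2 had no count and NNAT had a mean of 0.0136 FPKM.

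Of 13 genes listed here as read from the maternal allele in some mammals or tissues 7 were detected, 53.8% against 28.0% of all genes. The lists were not tested against each other. NAP1L4, a histone chaperone, was at 22.9, 23.9, 22.1, 23 and 24.2 FPKM and nearly level. UBE3A, a ubiquitin ligase, was at 13.4, 13.7, 10.6, 10.8 and 11.1 FPKM. PHLDA2, a brake on placental growth, was at 13.3, 6.59, 11.8, 7.28 and 5.84 FPKM and highest in NC 1. IGF2R, the receptor that clears IGF2, was at 3.16, 1.91, 3.54, 2.06 and 4.08 FPKM and TFPI2 at 1.29, 1.96, 2.29, 2.44 and 2.81 FPKM. No table here tells which allele a read came from, and imprinting of each gene in the pig embryo was not tested. Of the X inactivation list only RLIM, the ligase that promotes it, was matched, at 3.23, 3.16, 2.77, 4.23 and 3.03 FPKM. XIST and H19 were not analysed here.

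The DNA methylation list showed 7 of 13 genes detected (53.8%), against 28.0% of all genes. TET1, which oxidises methylcytosine, was at 65.8, 89.8, 30.3, 60.9 and 39.2 FPKM, and DNMT1, the maintenance methyltransferase that oocytes store, at 45.6, 28.1, 44.1, 11.9 and 11.4 FPKM. DNMT1 was lowest in NC 4 and NC 5, with a fold of 4.0 over the libraries. The de novo enzymes were low, DNMT3A at 2.65, 2.56, 3.41, 1.57 and 2.06 FPKM and DNMT3B at 0.183, 0.364, 0.0691, 0.417 and 0.0807 FPKM. MBD3, a subunit of the NuRD complex, and TDG, a glycosylase of the demethylation pathway, were at 12.2 ± 4.3 FPKM and 10.2 ± 1.69 FPKM. TET3, known as the dioxygenase of the zygote, had a mean of 0.0448 FPKM, and UHRF1, MBD2 and DNMT3L had 0.183, 0.177 and 0.142 FPKM.

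Of 20 histone genes 16 were detected, with a median SD of log2 FPKM of 0.32 against 0.37 over all detected genes, and 5 of them were under 0.2 while H1FOO was over 1. H2AFZ, the variant H2A.Z, was at 1157, 1282, 1255, 1216 and 952 FPKM and H3F3A, the replacement histone H3.3, at 485, 501, 519, 529.9 and 479 FPKM. The variant H2AFV was at 173 ± 19.9 FPKM. Among 47 histone-modifying enzymes 30 were detected (63.8%), against 28.0% of all genes. EED, the scaffold of the Polycomb complex PRC2, was at 59, 84.5, 82.6, 84.8 and 50.9 FPKM and its enzyme EZH2 at 21.8, 26.5, 24.2, 22.1 and 14.3 FPKM, both lowest in NC 5. HDAC2, a histone deacetylase, was at 41.7 ± 11.3 FPKM, and the arginine methyltransferases PRMT1 and PRMT5 at 20.1 ± 6.36 FPKM and 17.6 ± 6.37 FPKM.

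The CUL4 ligase and COP9 signalosome list, which holds DDB1, had 23 of 26 genes detected (88.5%), against 28.0% of all genes. NEDD8, the modifier that activates cullins, was at 315, 275, 299, 235 and 212 FPKM and RBX1, the RING subunit shared by cullin ligases, at 265, 209.8, 232, 209 and 176 FPKM. Both were highest in NC 1 and lowest in NC 5. DCAF13, a substrate receptor that also serves the ribosome, was at 113, 117, 157, 174 and 113 FPKM, and the signalosome subunits COPS6 and COPS2 at 67.2 ± 14.6 FPKM and 42.8 ± 7.34 FPKM. DDB1 itself, at chromosome 2 10171698 to 10200920, had a mean of 3.37 FPKM and an SD of log2 FPKM of 0.30. Its level per length was thus lower than that of NEDD8 in every library. DDB2, GPS1 and DCAF11 were under the threshold, at means of 0.324, 0.793 and 0.83 FPKM.

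Of 23 pro-apoptotic genes 15 were detected (65.2%), against 28.0% of all genes. After CYCS the high members included BAD (326 ± 142 FPKM), DIABLO (130.4 ± 14.3 FPKM) and CASP6, an effector caspase (15.6, 20.5, 26.8, 20.8 and 29.4 FPKM). BAX, the pore-forming effector, was under 1 FPKM in every library, at 0.464, 0.175, 0.146, 0.0561 and 0.438, and it overlaps NUCB1 and DHDH on the same strand. BBC3 had no count, and CASP8, CASP9, BMF and BOK had means of 0.0295, 0.039, 0.096 and 0.161 FPKM. Of 13 anti-apoptotic genes 11 were detected (84.6%), against the same 28.0%. TPT1, an abundant growth protein, was nearly level at 1466, 1287, 1433, 1432 and 1542 FPKM, and BIRC5 (survivin) was at 85.9, 63.8, 94.7, 69.6 and 91.9 FPKM. BCL2L10, a family member known from oocytes, was at 9.45, 10.7, 25.4, 16 and 14.1 FPKM and highest in NC 3. MCL1, its relative, was at 10.1, 9.53, 14, 7.94 and 10.7 FPKM and overlaps ENSA on the same strand.

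Proliferation genes were nearly complete. Of 35 genes of the S phase list 31 were detected (88.6%) and of 31 of the mitosis list 30 (96.8%), against 28.0% of all genes. PCNA, the clamp of replication, was at 294, 366, 306, 311 and 169.6 FPKM and lowest in NC 5. ORC6, TYMS, RRM2 and MCM6, which serve origin licensing and nucleotide supply, were at 79.3 ± 14.7 FPKM, 65.2 ± 20.1 FPKM, 53 ± 13.4 FPKM and 34.3 ± 6.27 FPKM. The mitotic ubiquitin carrier UBE2C was at 469, 596, 632, 729 and 577 FPKM. CKS2, a subunit of cyclin-dependent kinases, was at 258, 391, 322, 306 and 213 FPKM. CCNB1, cyclin B1, was at 112, 148, 177, 233 and 188 FPKM. UBE2C and CCNB1 were highest in NC 4 and lowest in NC 1. The D cyclins CCND1 and CCND2, which couple growth signals to the cycle in somatic cells, had means of 0.114 and 0.191 FPKM. In the DNA damage list 35 of 41 genes were detected (85.4%), with RPA2 at 87.7 ± 18.2 FPKM, APEX1 at 33.4 ± 9.15 FPKM and CHEK1 at 23.4 ± 5.94 FPKM.

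In the glycolysis and pyruvate list 22 of 35 genes were detected (62.9%), against 28.0% of all genes. LDHB, the lactate dehydrogenase subunit of tissues that use lactate, was at 1604, 1969, 1759, 1968 and 2199.6 FPKM, and LDHA, its partner, at 17.4, 16.3, 34.2, 16.1 and 18.4 FPKM. MPC1 and MPC2, which carry pyruvate into mitochondria, were at 187 ± 43.9 FPKM and 96.3 ± 7.25 FPKM, and ENO1, a glycolytic enzyme, at 139, 72.9, 107, 120.4 and 182 FPKM. GAPDH and ACTB, used elsewhere as reference genes, were at 17.9, 6.88, 12.9, 28.5 and 8.54 and 135, 146, 39.4, 72.4 and 29.8 FPKM. Their SDs of log2 FPKM were 0.82 and 1.03, above the median of 0.37 over detected genes. The ACTB isoform of 1729 bases held 67.7, 70.5, 0, 63.6 and 0% of the gene's isoform FPKM. It was thus absent in NC 3 and NC 5, where ACTB was lowest. Whether this division of reads bears on the spread of ACTB was not tested. LDHA, GAPDH and ACTB were chosen for the text after their values were seen. The low end held SLC16A3, without a count, and ENO2, PFKFB3 and PDK4, at means of 0.0223, 0.0646 and 0.401 FPKM.

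Pig oocytes are rich in lipid, and 21 of 38 genes of the lipid list were detected (55.3%), against 28.0% of all genes. FABP3, a fatty acid carrier, was at 2285, 1757, 1723, 1474 and 1280.2 FPKM and PLIN2, the coat of lipid droplets, at 187, 325, 116, 291 and 243 FPKM. FABP5, ACADM, which begins the oxidation of medium-chain fats, and ELOVL6 followed at 159 ± 31.3 FPKM, 109 ± 32.9 FPKM and 31.1 ± 8.2 FPKM. The droplet coat PLIN4 had no count, PLIN1 and PLIN5 had means of 0.00847 and 0.0252 FPKM, and LIPE, the hormone-sensitive lipase, had 0.0735 FPKM. In the redox list 24 of 30 genes were detected (80%). GLRX, glutaredoxin, was at 1308, 978, 209, 303 and 172 FPKM, highest in NC 1 and NC 2, while PRDX4, a peroxiredoxin of the endoplasmic reticulum, was at 581, 478, 671, 589 and 641 FPKM. TXN, thioredoxin, was at 528 ± 188 FPKM. In the unfolded protein and stress list 21 of 30 were detected (70%), led by PDIA3 (114 ± 22.7 FPKM), HSP90B1 (90.1 ± 25.5 FPKM) and CALR (86.4 ± 18.9 FPKM), folding factors of the endoplasmic reticulum.

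Of 45 genes of signalling ligands 6 were detected (13.3%), and of 50 receptor genes 14, the same 28.0% as over all genes. The highest ligand was IL6, a cytokine, at 53.8, 65.1, 47.6, 99.8 and 69.7 FPKM, above every other ligand of the list in each library. Its shared receptor chain IL6ST was at 3.66, 2.69, 20.4, 18.8 and 3.4 FPKM, high in NC 3 and NC 4 and under 4 FPKM elsewhere. GDF3, of the TGF-beta family, was at 12.2, 13.3, 10.6, 6.96 and 29 FPKM and EFNA1, a membrane-bound ephrin, at 3.47, 2.75, 2.62, 5.16 and 10.9 FPKM. Both were highest in NC 5. PDGFC had 10.4 ± 2.73 FPKM and HBEGF, a ligand of the EGF receptor family, 9.23 ± 2.98 FPKM. Of the other receptors, CXCR4, for the chemokine CXCL12, was at 3.58, 8.73, 4.59, 18.1 and 9.1 FPKM and highest in NC 4. ERBB3, an EGF receptor relative, was at 9.36, 7.42, 8.25, 6.89 and 11.4 FPKM. FGFR2, a receptor of fibroblast growth factors, was at 10.2, 7.62, 8.11, 3.89 and 5.15 FPKM. KIT, the receptor of stem cell factor, was at 2.29, 4.49, 8.06, 5.97 and 9.0 FPKM, lowest in NC 1 and highest in NC 5. FGF17, FGF18, IL11, WNT7B and DHH had no count.

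Among the carriers 11 of 21 were detected (52.4%), against 28.0% of all genes. They were led by SLC25A3, which brings phosphate into mitochondria, at 468, 516, 510.5, 562 and 562 FPKM. SLC25A5, the ADP/ATP carrier, was at 70.5, 232, 292, 208 and 269.8 FPKM and low in NC 1. SLC6A8, the creatine transporter, had 79.3 ± 28.8 FPKM, and SLC3A2, the shared chain of amino acid carriers, 12 ± 3.6 FPKM. Of 284 genes named ZNF, a name that covers the large zinc finger family, 92 were detected (32.4%), close to the share of all genes. ZNF593 (152 ± 18.8 FPKM) and ZNF706 (118 ± 36.2 FPKM) were the highest.

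Markers of other cells the sample could hold were mostly under the threshold, as were most genes: 28.0% of all genes listed were detected. None of 9 fibroblast genes and none of 11 blood cell genes was detected: the highest were DCN at 0.912, 0.405, 0.607, 0.149 and 1.28 FPKM, HBB, a globin, at 9.97, 1.18, 0.753, 1.06 and 0 FPKM and CD14 at 1.05, 0.414, 2.47, 0.901 and 2.5 FPKM. HBB was highest in NC 1 and had no count in NC 5. Of 15 cumulus and granulosa genes 1 was detected, FST (follistatin), at 43.3, 19.4, 23.8, 4.21 and 35.3 FPKM, and 7 of the other genes had no count, among them FSHR, AMH and FOXL2. PGR, STAR and CYP19A1 had means of 0.479, 0.424 and 0.046 FPKM. Of 9 sperm genes 1 was detected, SPACA1, at 32.1, 10.5, 30.5, 7.69 and 18.8 FPKM, while PRM1, TNP1, ODF1 and TSSK1B had no count. The summed cumulus list was 44.6, 20, 24.5, 5.02 and 37.0 FPKM, nearly all of it FST.

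The spread of most genes lay above counting error, and a small share was very uneven. The SD of log2 FPKM had a median of 0.37 over the 6824 detected genes, against 0.04 from counting error alone, and a CV of 25% at the median. Counting error was reckoned from the estimated counts and leaves out other sampling error, such as the division of reads between isoforms. The value of 0.04 is therefore approximate and on the low side. edgeR's dispersion, fitted to the estimated counts with no group term, gave a biological coefficient of variation of 31.6%. The lowest and highest library differed by more than 2-fold for 2911 detected genes (42.7%) and by more than 10-fold for 53. A spread over 1 was called wide and one under 0.2 narrow. There were 178 wide genes, 2.61% of those detected, and 898 narrow genes, 13.2%. Without NC 5 the narrow genes numbered 1392, and on the scale of log2(FPKM + 1) the wide genes numbered 91. The median spread was 0.40 at mean levels of 1 to 3 FPKM and 0.27 at 1000 FPKM and above, and a gene near the threshold can hardly be wide, since each of its values had to reach 1. Genes of 1 exon were wide in 12.3% of 301 cases, and genes of more exons in 2.16% of 6523.

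**Figure D3:**
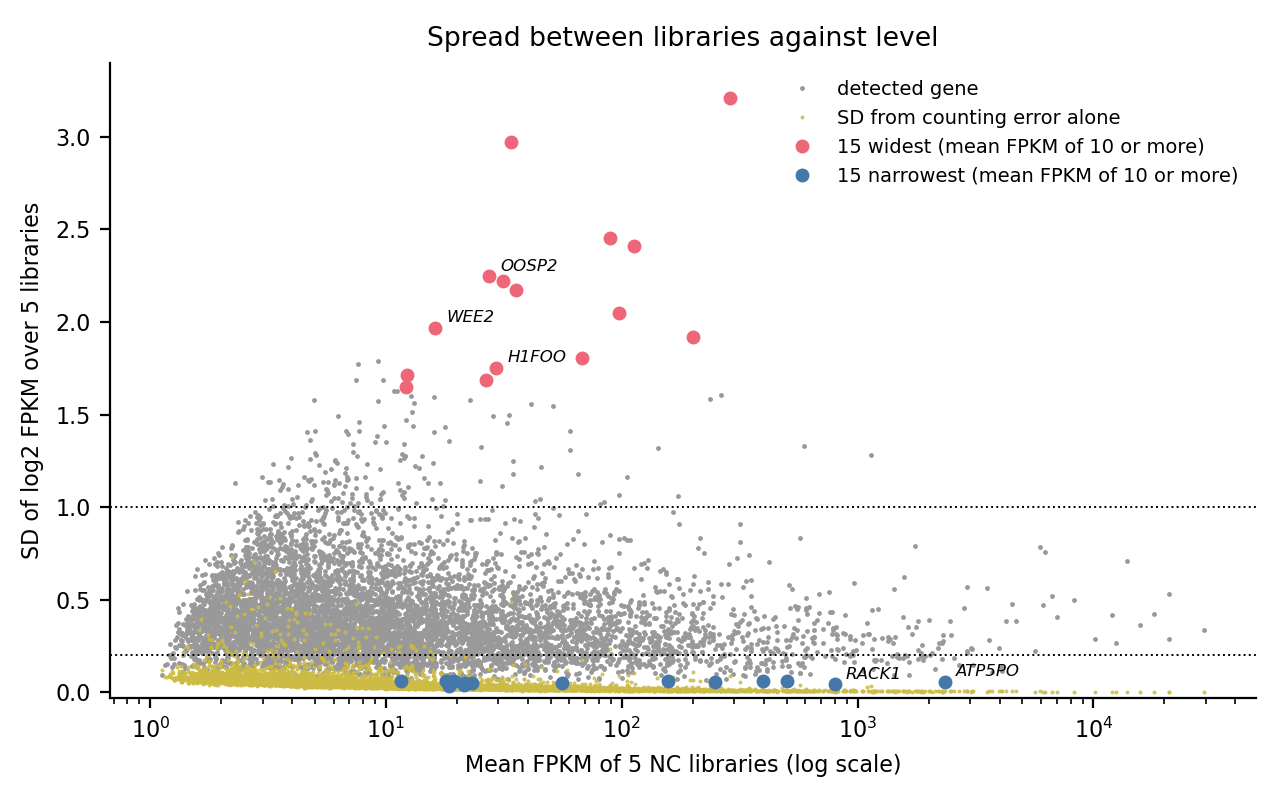
Each grey point is a detected gene, with its mean FPKM (x axis, log scale) and the SD of its log2 FPKM over the 5 libraries (y axis). Yellow points give the SD that counting error alone would give, and dotted lines mark SDs of 0.2 and 1. The 15 widest genes (red) reach 3.21 and the 15 narrowest (blue) lie at 0.06 or less.

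Wide genes differed by library. NC 5 was lowest for 59 of the 178 (33.1%) and for 19.9% of all detected genes. The widest gene with a mean of at least 10 FPKM was ENSSSCG00000000296, described as gametocyte-specific factor 1-like, at chromosome 5 19669821 to 19673217, at 446, 165, 605, 225 and 2.51 FPKM. It was low in NC 5 alone, where it had 58 counts. Several genes known from oocytes stood beside it: OOSP2, WEE2 and H1FOO have been given above, with SDs of log2 FPKM of 2.25, 1.97 and 1.75. C3orf49 was at 18.5, 18, 20.7, 2.3 and 2.07 FPKM, low in NC 4 and NC 5. CDKN1A, the p21 brake on cyclin-dependent kinases, was at 14, 11.4, 25.5, 1.25 and 8.58 FPKM and low in NC 4.

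In each of 4 other wide genes 1 library stood apart, high in GTF2A1L and S100A6 and low in the other two. GTF2A1L, a germ cell form of a general transcription factor, was at 122, 3.76, 5.37, 3.15 and 21.5 FPKM, high in NC 1, and it overlaps LHCGR on the other strand. S100A6, a calcium-binding protein, was at 5.55, 6.72, 96.1, 7.84 and 17.2 FPKM, high in NC 3. AURKAIP1, a mitochondrial ribosome protein that also binds Aurora A, was at 1.68, 15.7, 72, 42.8 and 44.9 FPKM, low in NC 1, and it overlaps CCNL2 on the same strand. ENSSSCG00000035894, an unnamed model of 276 bases that overlaps FBXL13 on the same strand and LRRC17 on the other, was at 191, 167, 3.64, 152 and 49.3 FPKM and low in NC 3.

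The remaining wide genes of this rank were mitochondrial models of 66 to 75 bases, the size of transfer RNA genes, without a name in the tables. ENSSSCG00000018074 (positions 6444 to 6509) was at 1.09, 80.3, 3.7, 81.7 and 2.14 FPKM and ENSSSCG00000018073 (6379 to 6444) at 5.45, 206, 12.4, 207 and 15.1 FPKM. ENSSSCG00000018072 (6272 to 6346) was at 9.04, 133, 19.7, 153 and 23.1 FPKM. ENSSSCG00000018062 (2206 to 2273) was at 57.5, 389, 32, 489.5 and 34.6 FPKM. All 4 were high in NC 2 and NC 4. The neighbouring models ENSSSCG00000018070 and ENSSSCG00000018071, which missed the threshold, had the same high libraries, at 0.729, 33.1, 0.378, 56.7 and 1.54 and 0.694, 36.1, 0.994, 45.7 and 1.19 FPKM.

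RSRC2, a serine- and arginine-rich protein, had the narrowest spread of the genes with a mean of at least 10 FPKM, at 18.6, 17.9, 18.9, 18.9 and 18.4 FPKM and an SD of log2 FPKM of 0.03. CTNNA1 came next, with 0.04, and then RACK1, a scaffold on the ribosome, at 767, 789, 828, 811 and 811 FPKM. PBDC1, MNAT1, which assembles the CDK-activating kinase, NAP1L4, PAFAH1B1, a regulator of dynein, NDUFA13, ATP5PO, CCT3, OCLN, HPF1, H3F3A, CRK and PDCD6 completed the 15, from 11.6 ± 0.507 FPKM for CRK to 2340.4 ± 94.5 FPKM for ATP5PO. For these 15 the highest library exceeded the lowest by 1.06-fold (RSRC2) to 1.12-fold (CRK).

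Some genes were high on average yet missed the threshold in a library. There were 20 with a mean of at least 10 FPKM, 8 of them of 1 exon. MT1D, described as metallothionein-1E, was at 159.7, 5.1, 40.8, 3.0 and 0.383 FPKM, high in NC 1. C11orf54 was at 18.1, 75.8, 0.995, 0.879 and 38.7 FPKM, high in NC 2 and NC 5, and it overlaps MED17 on the same strand. MED17 was low in those libraries, at 15.2, 3.91, 16, 23.6 and 2.24 FPKM, and how reads were divided between the pair was not tested. ACYP1, an acylphosphatase, was at 21.5, 0, 22.6, 8.46 and 10.1 FPKM, and its reads may be shared with MLH3 on the same strand. NOCT, a circadian phosphatase, was at 9.57, 20.9, 7.8, 0.134 and 15.9 FPKM, low in NC 4. ONECUT2, a homeobox factor, was at 19.5, 28.8, 1.54, 3.31 and 0.765 FPKM, and PPP1R27, a phosphatase regulator, at 38.3, 0.793, 67.6, 3.89 and 30 FPKM. ENSSSCG00000003303 (ret finger protein-like 4A) and ENSSSCG00000004151 (ubiquitin carrier E2 N-like) were both lowest in NC 5, at 31.8, 15.3, 23.9, 3.83 and 0.353 and 46, 20.7, 21.9, 4.77 and 0.622 FPKM.

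Gene lists also differed between libraries. For each list with at least 3 detected members the log2 FPKM of every detected member was set against the gene's own mean over the libraries, and the median over members was taken. The oocyte-secreted list ran from -1.16 in NC 4 to 1.35 in NC 3, and the maternal complex list from -0.93 in NC 4 to 1.29 in NC 3. These medians rest on 4 and 6 detected genes, and BMP15 and BTG4, under 1 FPKM in NC 5, do not enter. Summed over matched genes, the maternal complex list was lowest in NC 5 (21.3 FPKM, against 60.4 in NC 4). The oocyte-secreted sum was lowest in NC 4 (12.2 FPKM, against 14.0 in NC 5). The mitochondrially encoded list ran from -0.67 in NC 1 to 0.49 in NC 4, and the trophectoderm list from -0.58 in NC 2 to 0.35 in NC 1 and NC 5. Over all detected genes the same median stayed between -0.05 and 0.09 on the deposited scale. On that scale the lipid list ran from -0.07 to 0.04 and the mitochondrial ribosomal list from -0.12 to 0.05.

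**Figure D4:**
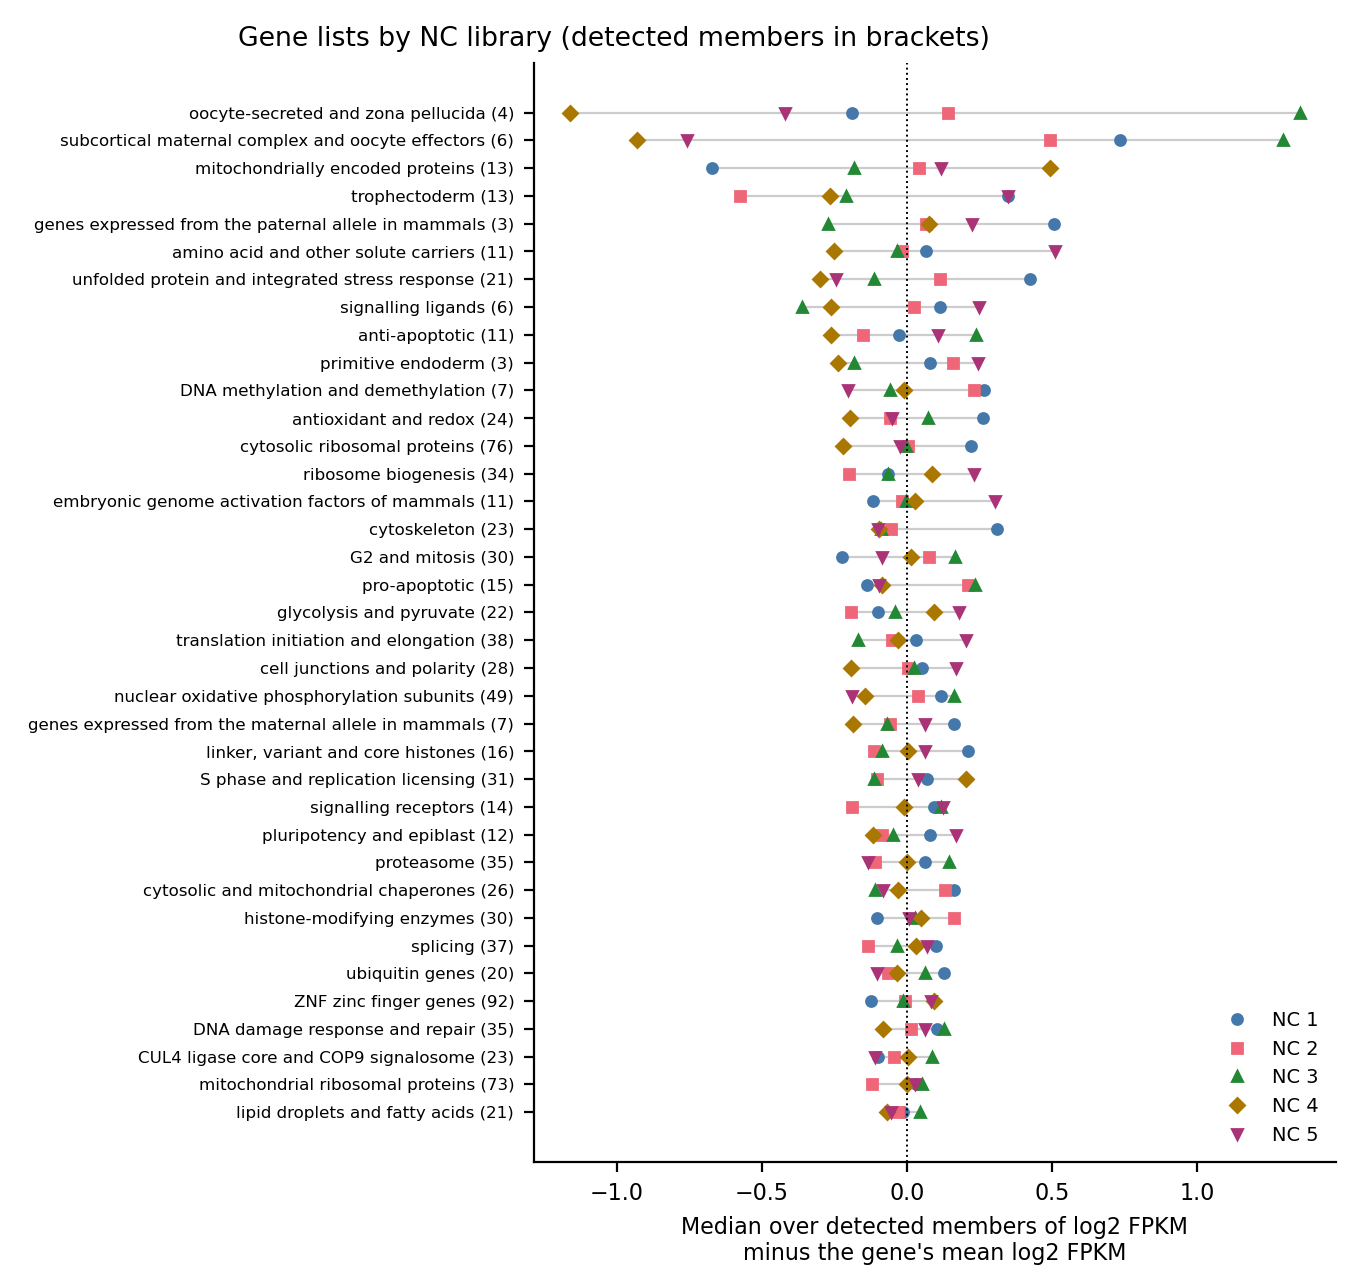
Each row is a gene list with the number of detected members in brackets, and each point is an NC library, placed at the median over members of log2 FPKM minus the gene's mean log2 FPKM. Rows are ordered by their range, and the oocyte lists, at the top of the lists with at least 3 detected members, span more than 2 log2 units between NC 4 and NC 3.

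Isoforms were listed for 47421 transcripts, and 7012 of them (14.8%) had at least 1 FPKM in all 5 libraries. Of the detected genes 2773 had 1 listed isoform and 4051 had more. An isoform's share is its FPKM divided by the sum over the gene's isoforms. The leading isoform had a median share of 86.7%. It was the same in all 5 libraries for 2631 genes and differed for 1420, 35.1%, and 1 isoform held over 50% in every library in 2559 genes and over 90% in 1437. The leader differed in 42.9% of genes with a mean of 1 to 3 FPKM and in 9.91% of those at 100 FPKM or more, and in 18.5% of genes with 2 isoforms and 61.8% of those with 5 or more. Isoforms share most of their sequence, so their shares rest on the estimate that made the table. In 57.9% of these genes the leader was the longest isoform listed.

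FTH1, SNRPE, LDHB, COX17 and RPS26 were the highest genes with at least 3 isoforms of which 1 held over 90% in every library. The leading isoform of FTH1 had 100% in each library and that of RPS26 99.6, 99.3, 99.6, 99.5 and 98.4%. At the other extreme 79 genes had at least 2 isoforms over 30% each in all libraries. NDUFB3, a complex I subunit, was split into 5-exon and 4-exon isoforms with 56.8, 60.6, 50.1, 57.4 and 56.6% and 43.2, 39.4, 49.9, 42.6 and 43.4%. RPL35A, CMC2, SEPT7, DPCD, TPM3, BRDT and ELOC were split likewise, while RPS6 and MRPS31 were both split and without a steady leader. BRDT, a bromodomain protein known from the testis, had isoforms at 53.3, 55.4, 58.6, 53.2 and 54% and 46.7, 44.6, 41.4, 46.8 and 46%, near an even division in every library.

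**Figure D5:**
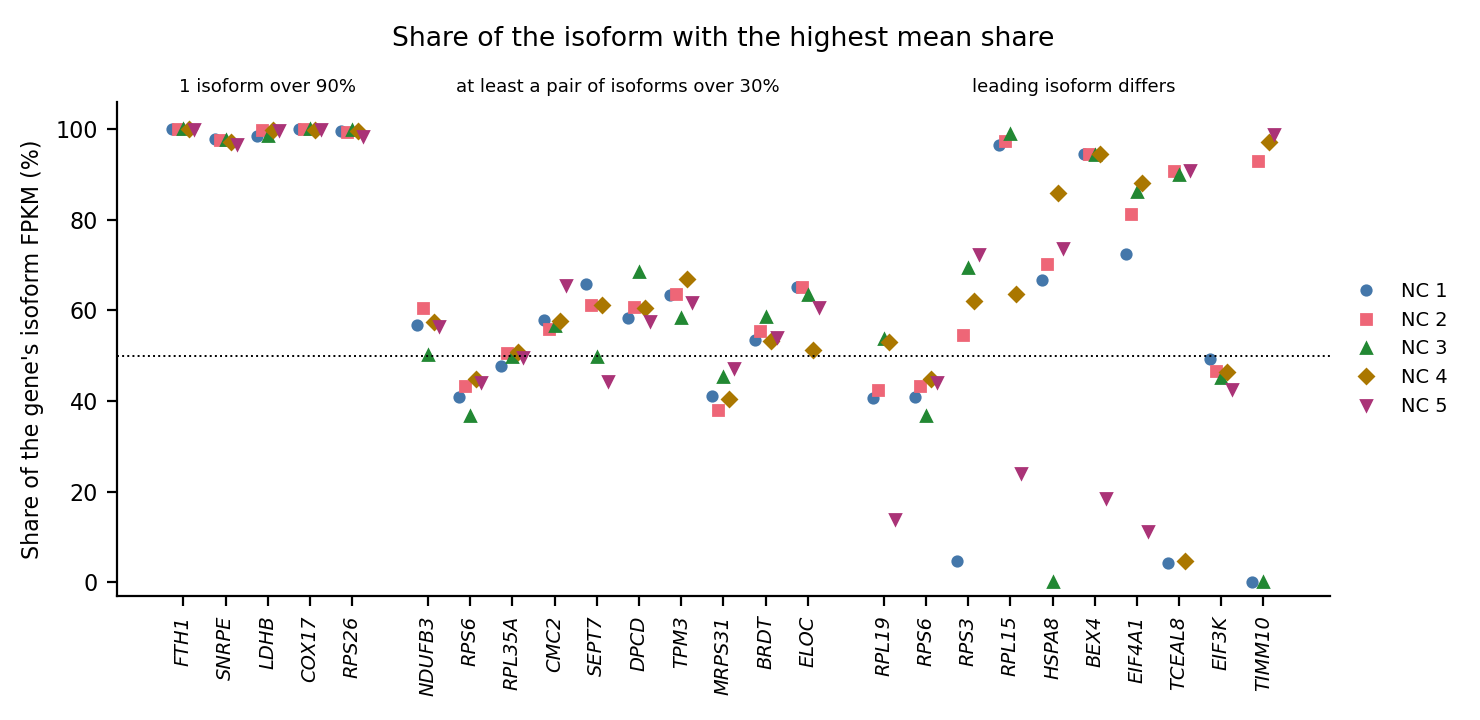
Points give, for each NC library, the share (%) of the gene's summed isoform FPKM held by the isoform with the highest mean share. The 5 genes on the left lie above 90%, those in the middle lie nearer to the dotted line at 50%, and those on the right, such as TIMM10 and BEX4, go from one isoform to another between libraries.

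Among the 10 highest genes whose leader differed, the odd library was not the same. TIMM10, an import chaperone of mitochondria, had a 3-exon isoform at 0, 92.9, 0, 97 and 99% and another 3-exon isoform with the rest, so that NC 1 and NC 3 differed from the others. TCEAL8 had its 2-exon isoform at 4.19, 90.6, 89.8, 4.69 and 91%, low in NC 1 and NC 4. BEX4 had its 2-exon isoform at 94.5, 94.5, 94.3, 94.4 and 18.5%, with NC 5 apart, and HSPA8 its 9-exon isoform at 66.7, 70.2, 0, 85.8 and 73.7%, with NC 3 apart. RPL15 and EIF4A1 also stood apart in NC 5, RPL19 had 3 different leaders, and RPS3 stood apart in NC 1, where its 8-exon isoform had 4.66% against 54.6% to 72.5% elsewhere. In EIF3K and RPS6 the leader held under 50% in every library. Of the 1420 genes 667 had 1 library apart from 4 that agreed, from 113 for NC 3 to 153 for NC 5.

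Of the lineage and regulator genes, GATA6, GATA3, MCL1 and YAP1 kept 1 leading isoform at 85.2% or more in every library. CDH1 kept its leader, a 16-exon isoform, at 80.2, 91, 63, 87.9 and 56%. DNMT1 did not keep one: its 41-exon isoform of 5590 bases held 53.8, 26.3, 33.8, 36 and 50.1% and its isoform of 5227 bases 0, 62.7, 60.8, 57.3 and 0%. TEAD4's leading isoform by mean share held 82.3, 0.986, 69.7, 28.9 and 36.4%, and DNMT3A's 92.4, 96.5, 98.7, 27.4 and 95.8%, with NC 4 apart for the latter. POU5F1, TFAP2C, TET1 and DDB1 have 1 listed isoform.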

How the data were processed

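RNA from pig morulae of the NC group (5 libraries of a non-specific siRNA) was described from 2 tables of the whole series, one per gene and one per isoform. Each lists FPKM and estimated counts for every library. The authors deposited the FPKM values without a log transform, with 0.0001 where the count is 0, which is printed here as 0. The authors also deposited whole-number counts, which are estimated counts: per isoform they equal FPKM times length times a constant of the library for 100% of the values (within 1.5 counts plus 0.5%), and per gene they are the isoform sums for all 24358 genes. A gene's FPKM is not the sum of its isoforms' FPKM. The submitters' processing notes name fastp, HISAT2, StringTie, edgeR, HOMER and ChIPseeker, without version, role or order, and the build susScr11. Neither the annotation, the counter nor the strand setting is named in the sources used here. The 10 columns per table that belong to the other group, 20 in all, were not used.

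Genes were named from the table (17451), from Ensembl names (951) or RefSeq names of Sscrofa11.1 (719), and by identifier otherwise (5237). Members and gene lists were chosen with earlier results of these data known. The genes printed are the 20 nuclear genes of highest mean FPKM, the mitochondrially encoded proteins, up to 5 genes at either end of each of 43 lists, lineage, methylation, imprinting and cell death genes named whatever their values, the 15 genes of widest and of narrowest spread with a mean of at least 10 FPKM, and isoform examples of highest mean FPKM. Genes of a high mean that missed the threshold, LDHA, GAPDH, ACTB, CD99, other list members outside these ranks, the overlapping RNA models of chromosome 1 and the neighbours of the mitochondrial models were chosen after their values were seen. A few genes that these choices would name are not reported here.

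One group was described, so no contrast and no test was made. Spread was the SD of log2 FPKM over the libraries, with no pseudocount, in genes detected in all 5. The biological coefficient of variation came from edgeR 4.0.16 (R 4.3.3) on TMM-scaled estimated counts with an intercept alone, a step that was tested on simulated data. Tables and plots were made with Python 3.11.15, pandas 2.3.3, numpy 2.4.6 and matplotlib 3.10.9. Library totals of 33737657 to 50911295 estimated counts limit the precision of low values, a level of 3 counts is the limit that a count of 0 allows, and both cover counting error only. Other thresholds, scalings (TMM, TPM, scaling without mitochondrial genes), filters, and each library left out in turn were also tried. No sequence was used here.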

Additional observations from a re-analysis of the deposited data

Results flagged for a closer look

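For the genes and lists named above, the 5 libraries were searched for a value whose gap to the nearest of the others took more than 0.71 of the whole range. Chance gives such a distance in about 1 of 20 groups of 5 independent, normally distributed values. FPKM values need not be normal, and some genes had a count in 1 library alone, so that rate may not hold here. Such a gap was found for 427 of all 6824 detected genes (6.26%). Of 267 named genes with a count 23 had such a library (8.61%), of 42 summed lists 1 (2.38%), and of 6 measures of the libraries themselves, such as depth and mitochondrial share, 0. Of 12 leading isoforms 4 had one. The named genes and isoforms include ones chosen for their wide spread or for a leader that differs between libraries, so these counts are a description only.

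NC 1 stood far above the others for GTF2A1L (122 FPKM), KRT8 (179 FPKM), MT1D (159.7 FPKM), HBB (9.97 FPKM) and NDN (7.86 FPKM), and at levels under 1 FPKM for NLRP7 (0.441), CASP9 (0.145) and HNF4A (0.12). The summed blood cell markers were at 12.7 FPKM there, most of it HBB. NC 1 was far below the others for USP29 (1.32 FPKM).

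NC 3 stood far above the others for DPPA5 (198 FPKM), S100A6 (96.1 FPKM), LDHA (34.2 FPKM), GDF9 (6.6 FPKM), the signal recognition particle RNA model RF00017 at 218682874 on chromosome 1 (407 FPKM) and NODAL (0.0503 FPKM, the one library with a count). It was far below for SEPT7 (151 FPKM), and the leading isoform of HSPA8 held 0% there.

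NC 4 stood far above the others for MPC1 (264 FPKM) and NNAT (0.0681 FPKM, the one library with a count), and far below for RPS3 (475 FPKM) and for the leading isoform of DNMT3A (27.4%). NC 5 stood far above for GDF3 (29 FPKM), FGF4 (0.32 FPKM) and PLIN1 (0.0423 FPKM), the last 2 with 14 and 5 counts there, and far below for COX7A2 (3544 FPKM), for the leading isoform of RPS26 (98.4%) and for that of BEX4 (18.5%). NC 2 was not the outlying library in any of these.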

How the results depend on the processing

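The 6824 detected genes became 3566 at a threshold of 5 FPKM and 10719 with at least 10 estimated counts in all 5 libraries. The other thresholds, scalings and left-out libraries gave 5389 to 9975 genes (6941 to 7029 with 1 library left out). The detected isoforms ran from 5451 to 8521 (7284 to 7357 with 1 left out). Ranking by estimated counts, which are not set per length, kept 62 of the top 100 genes, and every other ranking tried kept 97 to 100. The 178 wide genes became 91 on log2(FPKM + 1), 96 with a mean of at least 10 FPKM and 7715 with no filter, where values of few counts enter, and 194 to 233 with 1 library left out. The 898 narrow genes became 538 with a mean of at least 10 FPKM, 1392 without NC 5 and 1100 to 1392 over the left-out libraries. The filter of 10 FPKM keeps fewer genes, 3041 of the 6824 detected. It also lets in 20 genes that missed the threshold in a library, all of them wide. Its counts of wide and narrow genes therefore do not compare as shares with the unfiltered ones. The median spread became 0.81 with no filter, and 0.33 to 0.37 with 1 library left out. The 2559 genes with a dominant isoform became 1172 with a mean of at least 10 FPKM (2710 to 2767 with 1 left out), and the 1420 with differing leaders became 365 (1315 to 1326). Both filtered counts come from fewer genes too, so they do not compare as shares with the unfiltered ones. The biological coefficient of variation became 77.2% with no filter, and 30.1% to 32.5% with 1 library left out.

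Scaling by TMM or without mitochondrial genes moved the mean of none of the 267 genes by its own SD. The scaling factors were centred over the libraries, at 0.927 to 1.08, so a mean over the libraries could hardly move. That count is therefore no evidence that the levels are robust to scaling. The spread of 202 detected genes moved by more than 1.5 times for 18 under TMM, 20 without mitochondrial genes and 2 on log2(FPKM + 1), and in 83 of 1010 cases with 1 library left out. Filters leave a single gene's own spread as it is. No paired analysis was possible because 1 group is described and no test is made.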
